A study of Homo sapiens with 12 samples.

Results

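The genes described here build and furnish the base of the primary cilium: 47 genes of the transition zone, the basal body with its distal appendages, and the trafficking of ciliary membrane proteins. They were chosen by name, as the rows of the deposited expression table whose symbol is on the list, and all 47 were found among its 60564 genes. Of these, 40 had a level of at least 1 FPKM (fragments per kilobase of transcript, scaled to the mapped fragments of the library) in at least 3 of the 12 libraries and were tested. The other 7, which are TCTN1, RPGRIP1L, AHI1, CEP290, CEP83, SCLT1 and CEP152, reached that level in at most 2 libraries and are given by value. By structure, 18 genes belong to the transition zone, 5 to the distal appendages, 6 to centriole duplication, 6 to the distal end of the centriole and the start of cilium growth, 2 to satellites and subdistal appendages, and 10 to membrane trafficking.

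Bulk RNA sequencing was run on BxPC-3 and CFPAC-1, established lines of human pancreatic ductal adenocarcinoma. In each line the cultures called cilia had been starved of serum for 48 h to induce cilia, and the cultures called control were kept under normal conditions, with 3 libraries in each of the 4 groups. The series text gives the share of ciliated cells as 78% in induced and 5% in normal BxPC-3 cultures, and as 39% in induced and 7% in normal CFPAC-1 cultures, without an error. Starvation and cilia came together in every induced library, so their parts cannot be told apart, nor can a change per cell from a change in the share of cells that carry the RNA. No label says whether the 3 libraries of a group are separate cultures, and the p-values rest on their spread, which could be wholly technical. How many reads stand behind a value is unknown.

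A primary cilium grows from the mother centriole, which docks at the membrane by its distal appendages and is then called the basal body. Above it lies the transition zone, a gate of MKS and NPHP protein modules that decides which membrane proteins enter. The centriole must first lose a cap made of CP110 and CEP97, and its membrane and lipid-anchored proteins arrive with the help of small GTPases of the RAB and ARL families. The same centrioles duplicate once in each cell cycle under the kinase PLK4, so part of this gene set serves dividing cells.

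Many ciliary genes carry an X-box, the binding motif of RFX transcription factors, and the promoters were read for it because it is a sequence feature that the choice of genes did not use. RefSeq promoter windows on GRCh38.p14, from 250 bases before to 50 after a transcript start, were matched by symbol for 42 of the 47 genes and gave 57 windows; TCTN2, CENPJ, TMEM67, UNC119B and PCM1 had no entry. An X-box, searched on both strands as GTNNCC and GGNAAC separated by any 2 bases, was in 7 of the 57 windows (12.3%), against 522 of all 35116 human windows (1.49%) and 4.2% of the 96 windows of the other ciliary base genes counted further on. The matches belong to 6 genes and are shown with the motif in capitals, 5′ to 3′ on the strand of the gene, since the share of windows with this motif was above that over all windows:
TMEM17: gccgcccgGTTGCCGTGGGAACcacggagc
AHI1: acgcatcgGTCGCCATGGGAACggcggcgt
RAB3IP: tcgcgctgGTTCCCAGGGAAACcgcccgcg
TMEM231: agccgtcgGTTGCCGTGGAGACcgaggcga
TMEM107: cgtacacgGTTACCAAGGCAACtgggcggt
B9D1: ctgggactGTTACCTTGGCTACtggctccc
They lie at chr2:62506189-62506218 (minus strand) for TMEM17, chr6:135497787-135497816 (minus) for AHI1 and chr12:69738641-69738670 (plus) for RAB3IP. The other 3 lie at chr16:75556271-75556300 (minus) for TMEM231, chr17:8176404-8176433 (minus) for TMEM107 and chr17:19378085-19378114 (minus) for B9D1. A match of letters is a description and not a shown binding site.

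The libraries labelled CFPAC-1 control 2 and 3 stood apart from the rest of their line. They correlated at 0.990 with each other over all tested genes, but on average at 0.803 with the other 4 CFPAC-1 libraries, which correlated at 0.944 among themselves. All CFPAC-1 comparisons with control are therefore given with and without them; without them the control group is the single library CFPAC-1 control 1, which is then assumed to vary as the other groups do (6 residual degrees of freedom) and leaves less power than the full set. The mitochondrial genome supplied from 11.6% to 34.0% of all FPKM in a library. All 7 markers of duct epithelium passed the level filter, but not through both lines alike. CDH1 was under 1 FPKM in all 6 CFPAC-1 libraries, where KRT7 was at most 2.01 FPKM, and KRT19 was at 254, 627 and 556 FPKM in CFPAC-1 cilia against 532, 7.42 and 7.67 FPKM in CFPAC-1 control. EPCAM was likewise at 11.2 to 14.8 FPKM in CFPAC-1 cilia and in control 1, and at 0.963 and 1.04 FPKM in control 2 and 3, so these libraries lacked most of the KRT19 and EPCAM RNA of their line while KRT8 and KRT18 were kept. SOX9 went the other way, at 55.1 and 53.0 FPKM in control 2 and 3 against 13.2 to 18.9 FPKM in the other 4 CFPAC-1 libraries. In BxPC-3 SOX9 was at 4.78, 2.20 and 2.44 FPKM in cilia against 4.13, 16.8 and 17.1 FPKM in control. Of the 5 blood cell markers PTPRC, CD3E and MS4A1 were under 1 FPKM in every library, as were all 4 endothelial markers. CD68, a lysosomal protein that marks macrophages, was at 47.8, 38.9 and 37.1 FPKM in CFPAC-1 cilia against 12.8, 6.94 and 6.64 FPKM in CFPAC-1 control, and CD14 at 6.31 to 7.06 FPKM in BxPC-3 cilia against 1.39 to 2.18 FPKM in BxPC-3 control. The 5 summed to 8.88 to 12.7 FPKM in BxPC-3 cilia against 4.91 to 6.12 in BxPC-3 control, and to 37.5 to 48.1 FPKM in CFPAC-1 cilia against 10.6 to 13.2 in CFPAC-1 control. Of the 8 markers of multiciliated cells 6 were under 1 FPKM in every library, the others being CCNO, at 1.04 to 4.01 FPKM, and FOXJ1. FOXJ1 was at 2.31 and 1.74 FPKM in CFPAC-1 control 2 and 3 and at most 0.0746 FPKM in the other CFPAC-1 libraries. In BxPC-3 FOXJ1 was at 0.182, 0.727 and 0.585 FPKM in control and at most 0.0882 FPKM in cilia. The 6 fibroblast markers summed to 26.0 to 110 FPKM in CFPAC-1 cilia and 5.93 to 37.2 FPKM in CFPAC-1 control, and to under 2 FPKM in both BxPC-3 groups, with COL1A2, DCN and PDGFRB under 1 FPKM everywhere. The sum was mostly LUM in CFPAC-1 cilia and control 1, and COL1A1 and THY1 in control 2 and 3, where LUM was at 0.0532 and 0 FPKM. The part of these marker differences in the results was not tested.

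The 47 genes were transcribed at low levels. The median of log2(FPKM + 1) over them was 1.27 to 1.78 in BxPC-3 cilia and 1.42 to 1.52 in BxPC-3 control, and 1.05 to 1.28 in CFPAC-1 cilia against 1.5 to 1.6 in CFPAC-1 control. EHD1, RAB11A and TCTN3 were among the few above 10 FPKM in most libraries, and the 7 untested genes stayed near or under 1 FPKM. Summed over the 47 genes, the level was 198, 171 and 178 FPKM in BxPC-3 cilia against 180, 177 and 181 in BxPC-3 control. It was 169, 141 and 146 FPKM in CFPAC-1 cilia against 157, 207 and 212 in CFPAC-1 control. The ranges overlapped in both lines, and in CFPAC-1 the libraries control 2 and 3 were the highest while control 1 lay within the range of the cilia libraries.

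**Figure D1:**
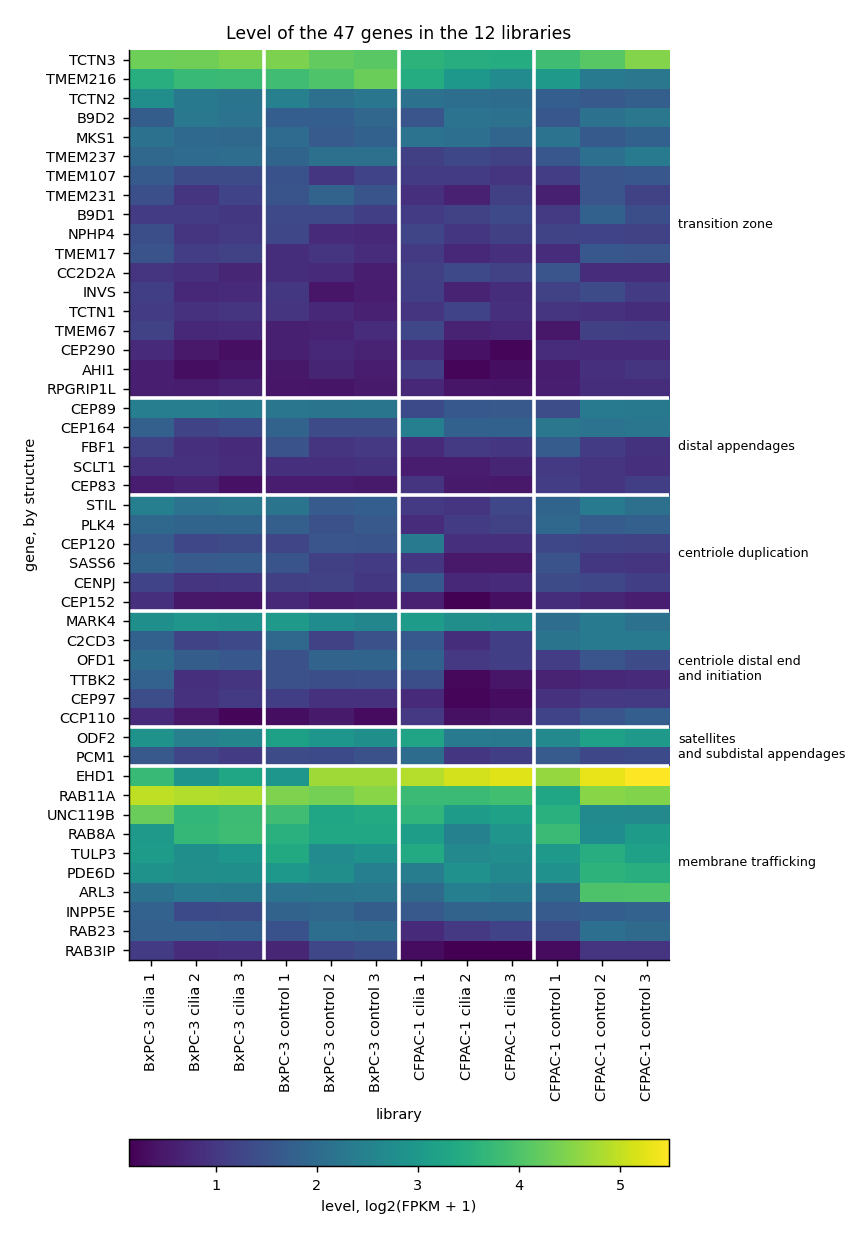
Level of each of the 47 genes (rows, grouped by structure and ordered by mean level within it) in each of the 12 libraries (columns), as colour on the log2(FPKM + 1) scale. RAB11A and EHD1 are the brightest rows of the trafficking group, EHD1 is dimmer in BxPC-3 cilia than in CFPAC-1 cilia, and ARL3 is bright only in CFPAC-1 control 2 and 3.

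Cilium induction left this gene set without a common rise in either line. In BxPC-3, where the share of ciliated cells was highest, none of the 47 genes passed limma's test at an adjusted p of 0.05 (Benjamini-Hochberg over the 12860 tested genes), against 0.334% of all tested genes. At an unadjusted p under 0.05 there was 1 gene, SASS6, against a background of 8.52%. The test pools the spread over the 4 groups, so its standard errors for BxPC-3 also carry the spread of the CFPAC-1 control libraries. With BxPC-3 fitted alone, none of the members passed either (background 0.101%). Among all 47 genes, tested or not, the cilia and control values did not overlap for 6 that were higher in BxPC-3 cilia and 3 that were lower. The 6 are TMEM17, RPGRIP1L (not tested), CEP89, PLK4, SASS6 and RAB11A, and the 3 are TMEM216, TMEM231 and B9D1. The same held for 12.4% of all tested genes upwards and 4.84% downwards. The median log2 difference, cilia minus control, was 0.08 over the 40 tested members and 0.06 over all tested genes.

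In CFPAC-1, 7 of the 40 tested members fell (17.5%) and 1 rose (2.5%), against 8.77% and 7.85% of all tested genes. The 8 calls together are near the background for a change in either direction of 16.6%, with falls above and rises below their own backgrounds. STIL, PLK4, C2CD3, TMEM237, CCP110, RAB23 and TCTN3 fell, and MARK4 rose. The median log2 difference over the tested members was -0.29, with 8 of 40 above 0, beside -0.09 over all tested genes. Without CFPAC-1 control 2 and 3 none passed (background 1.73%), 8 had an unadjusted p under 0.05 (background 18.1%), and the median was -0.10 beside -0.05 over all tested genes. With a single library left out, 18 passed without CFPAC-1 control 1 (background 42.0%) and 1 without control 2 (background 3.93%). With all libraries, the values of cilia and control did not overlap for 2 higher and 11 lower of all 47 genes, tested or not. The same held for 14.0% and 17.6% of all tested genes.

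**Figure D2:**
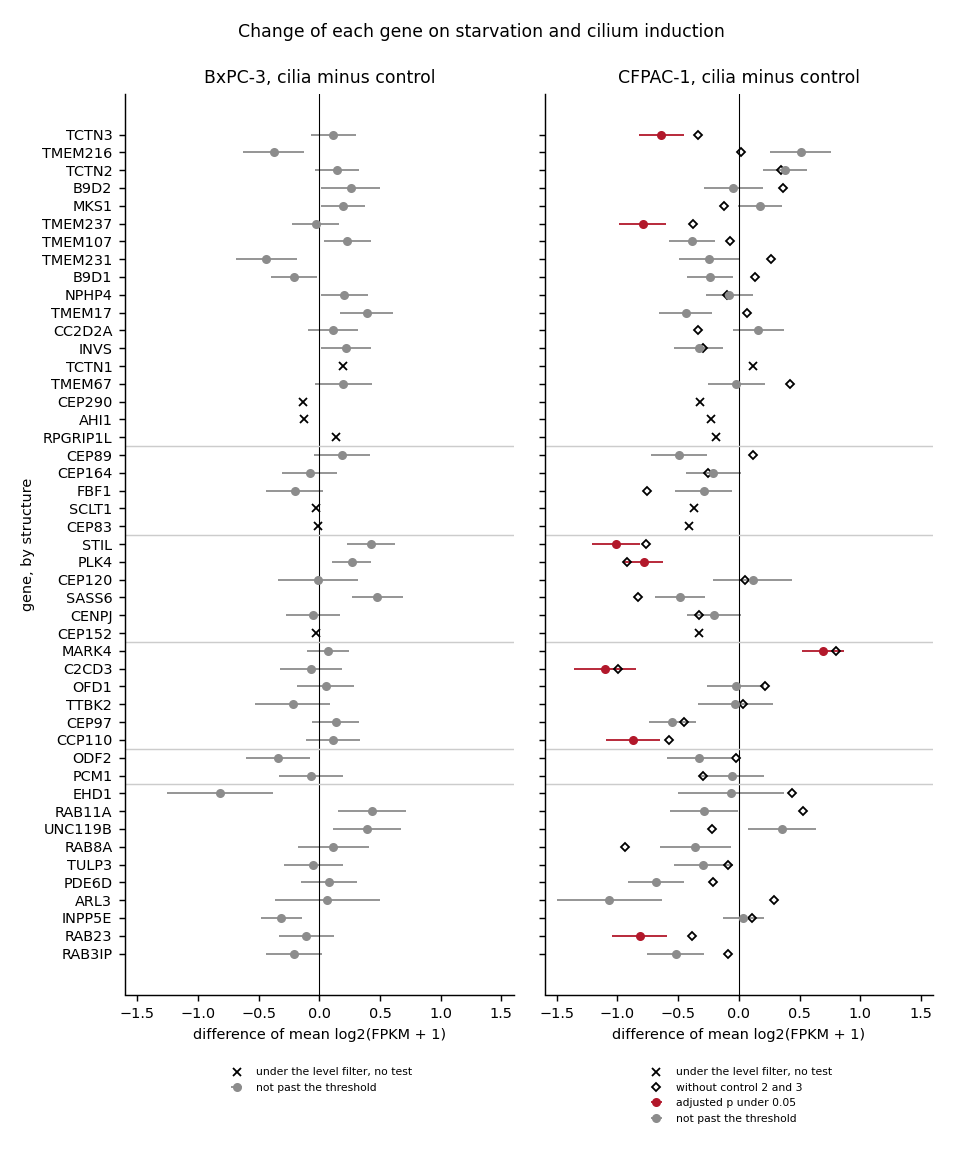
Difference of mean log2(FPKM + 1), cilia minus control, for each gene in BxPC-3 (left) and CFPAC-1 (right), with bars of 1 standard error from limma; colour marks genes past the adjusted threshold, crosses the genes not tested, and open diamonds the CFPAC-1 difference without control 2 and 3. No gene is coloured in BxPC-3; in CFPAC-1 STIL, PLK4, C2CD3, TMEM237, CCP110, RAB23 and TCTN3 lie left of 0 and MARK4 right of it, and for ARL3 and RAB11A the diamond lies on the other side of 0 from the point.

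The change on induction differed between the lines for STIL and PLK4, the 2 members past the threshold for the difference of changes (background 2.45%). Both fell in CFPAC-1 and had a positive log2 difference in BxPC-3 that did not pass, and neither difference of changes passed without CFPAC-1 control 2 and 3, when 0 members did by limma and 5 had an unadjusted p under 0.05 (background 16.5%). Without CFPAC-1 control 1 alone, 15 passed the adjusted threshold (background 32.3%). In induced cells, 10 of the 40 tested members were higher in BxPC-3 than in CFPAC-1 and 1 was lower (27.5% together), against a background of 36.2%, of which 21.4% higher and 14.8% lower. That contrast uses none of the CFPAC-1 control libraries for its means. The 10 are STIL, RAB11A, SASS6, CEP89, PLK4, TCTN3, TMEM237, RAB23, RAB3IP and CEP97, and the lower one is EHD1. RAB3IP reached 1 FPKM in 3 libraries, all of them BxPC-3, so it was tested only through the line in which it is higher, and its call was lost in 10 of 22 alternatives, among them the replicate block (limma adjusted p = 0.0713). The median log2 difference was 0.23 over the tested members and 0.12 over all tested genes; after quantile normalization, which moved that median of all genes to 0.00, it was 0.12 over the members.

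Among the genes of centriole duplication, STIL and PLK4 fell in CFPAC-1. STIL (chr1:47250139-47314147, minus strand), the scaffold that PLK4 phosphorylates at the start of a new centriole, was at 1.06, 0.963 and 1.42 FPKM in CFPAC-1 cilia against 2.64, 4.11 and 3.34 FPKM in CFPAC-1 control. Every cilia library lay under every control library. The log2 difference was -1.01 ± 0.20 (SE, n = 3 libraries each; limma adjusted p = 0.00891), and -0.76 ± 0.26 without control 2 and 3 (limma adjusted p = 0.16). In BxPC-3, STIL was at 4.45, 3.54 and 3.78 FPKM in cilia against 3.59, 2.18 and 2.32 FPKM in control, where the highest control library overlapped the lowest cilia library. That log2 difference of 0.43 ± 0.20 did not pass (limma adjusted p = 0.589).

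PLK4 (chr4:127880861-127899195, plus strand), the kinase that starts centriole duplication, was at 0.754, 1.14 and 1.25 FPKM in CFPAC-1 cilia against 2.85, 2.24 and 2.45 FPKM in CFPAC-1 control, again without overlap. It fell by 0.78 ± 0.16 on the log2 scale (SE, n = 3 each; limma adjusted p = 0.0111), and the difference was -0.92 ± 0.22 without control 2 and 3 (limma adjusted p = 0.0702). PLK4 was the one member whose call in CFPAC-1 was kept with each of the 12 libraries left out in turn, with a highest limma adjusted p of 0.0495. In BxPC-3, PLK4 was at 2.84, 2.66 and 2.61 FPKM in cilia against 2.40, 1.77 and 2.10 FPKM in control, which did not overlap, and the log2 difference of 0.27 ± 0.16 did not pass (limma adjusted p = 0.718). The changes of the lines, BxPC-3 minus CFPAC-1, differed by 1.05 ± 0.23 for PLK4 (limma adjusted p = 0.041) and by 1.44 ± 0.28 for STIL (limma adjusted p = 0.0294). Without CFPAC-1 control 2 and 3 these were 1.19 ± 0.27 (limma adjusted p = 0.0893) and 1.19 ± 0.32 (limma adjusted p = 0.128).

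SASS6 (chr1:100083563-100132955, minus strand), which forms the cartwheel of the new centriole, had a similar pattern of values without passing either test on induction. It was at 2.57, 2.19 and 2.24 FPKM in BxPC-3 cilia against 1.88, 1.24 and 1.12 FPKM in BxPC-3 control, a log2 difference of 0.48 ± 0.21 (limma adjusted p = 0.563). It was at 0.981, 0.422 and 0.430 FPKM in CFPAC-1 cilia against 1.83, 1.02 and 0.931 FPKM in CFPAC-1 control, a log2 difference of -0.48 ± 0.21 (limma adjusted p = 0.121) and of -0.83 ± 0.26 without control 2 and 3 (limma adjusted p = 0.139). The groups did not overlap in BxPC-3 and touched in CFPAC-1, where cilia 1 lay above control 3. In induced cells SASS6, STIL and PLK4 were higher in BxPC-3 than in CFPAC-1, by 1.07 ± 0.21, 1.20 ± 0.20 and 0.86 ± 0.16 on the log2 scale (limma adjusted p = 0.00249, 0.000822 and 0.00182).

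The other genes of this group did not follow. CENPJ and CEP120, which lengthen centrioles, had log2 differences of -0.05 and -0.01 in BxPC-3 and of -0.21 and 0.11 in CFPAC-1 (-0.33 and 0.05 with control 1 alone), none past the threshold. CEP120 was at 4.00 FPKM in CFPAC-1 cilia 1 but at 0.809 and 0.849 FPKM in CFPAC-1 cilia 2 and 3, against 1.27 to 1.47 FPKM in CFPAC-1 control, so a single library sets its mean. CEP152, which brings PLK4 to the centriole, stayed under 1 FPKM in every library.

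Genes of the cell cycle fell beside STIL and PLK4 in CFPAC-1. Of 30 cell cycle genes, among them MKI67, TOP2A and the MCM genes of DNA replication, 12 fell and 0 rose in CFPAC-1, against 8.77% and 7.85% of all tested genes, with a median log2 difference of -0.97 beside -0.09 over all tested genes. Without control 2 and 3 the median was -1.06 beside -0.05, and 1 fell, where 1.73% of all tested genes passed. In BxPC-3 0 passed limma's test and 2 had an unadjusted p under 0.05 (background 8.52%), with a median of 0.41 beside 0.06. Their summed level was 295, 599 and 624 FPKM in CFPAC-1 cilia against 1100, 895 and 934 FPKM in CFPAC-1 control. In BxPC-3 it was 908, 1023 and 1018 FPKM in cilia against 1070, 636 and 650 FPKM in control. The sum was thus lower in every CFPAC-1 cilia library than in every control library, while BxPC-3 control 1 lay above all BxPC-3 cilia libraries and control 2 and 3 below them. For the difference of changes, BxPC-3 minus CFPAC-1, all 30 had a positive value, with a median of 1.32 beside 0.16 over all tested genes. Of these 2 passed, BUB1 and TYMS (6.7%, background 2.45%). In induced cells 12 were higher in BxPC-3 than in CFPAC-1 (40.0%, background 21.4%) and 0 were lower (background 14.8%). The median there was 0.85 beside 0.12. The part of the cell cycle genes in the values of STIL, PLK4 and SASS6 was not tested.

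The promoters of STIL, PLK4 and SASS6 are shown because these genes had similar values across the groups. Capitals mark matches, on either strand, to an E2F-like motif (TTTNNCGC), to the cell cycle homology region or CHR (TTTGAA) and to the CCAAT box (CCAAT), motifs known from promoters of cell cycle genes. The windows are RefSeq's on GRCh38.p14 at chr1:47314098-47314397 (minus strand) for STIL, chr4:127880643-127880942 (plus) for PLK4, the first of its 3 listed starts, and chr1:100132881-100133180 (minus) for SASS6.
STIL: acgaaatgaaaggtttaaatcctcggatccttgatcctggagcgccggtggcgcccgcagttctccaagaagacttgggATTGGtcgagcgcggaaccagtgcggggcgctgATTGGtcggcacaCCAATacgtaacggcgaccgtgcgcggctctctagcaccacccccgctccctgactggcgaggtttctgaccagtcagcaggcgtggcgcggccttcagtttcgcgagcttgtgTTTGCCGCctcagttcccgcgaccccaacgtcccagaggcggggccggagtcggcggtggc
PLK4: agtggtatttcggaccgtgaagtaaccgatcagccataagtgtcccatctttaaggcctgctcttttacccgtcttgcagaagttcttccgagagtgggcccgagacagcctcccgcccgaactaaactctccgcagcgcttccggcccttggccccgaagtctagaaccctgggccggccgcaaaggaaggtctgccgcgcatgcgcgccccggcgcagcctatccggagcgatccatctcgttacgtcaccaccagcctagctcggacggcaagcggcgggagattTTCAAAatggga
SASS6: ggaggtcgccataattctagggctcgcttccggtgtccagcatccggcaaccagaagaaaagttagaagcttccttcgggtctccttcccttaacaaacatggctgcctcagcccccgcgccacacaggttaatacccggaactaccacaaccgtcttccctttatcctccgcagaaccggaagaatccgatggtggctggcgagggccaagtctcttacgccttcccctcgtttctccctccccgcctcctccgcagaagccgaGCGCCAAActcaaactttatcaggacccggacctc
STIL holds an E2F-like match and 3 CCAAT boxes, PLK4 a CHR at position 39 after its transcript start, and SASS6 an E2F-like match, and none of these overlap. Another PLK4 window, not shown, holds a CCAAT box. Over all 35116 windows the E2F-like motif is in 6.89%, the CHR in 15.2% and the CCAAT box in 34.6%, and over the 57 windows of the members in 12.3%, 12.3% and 47.4%. Over the 96 windows of the other ciliary base genes the shares are 12.5%, 11.5% and 36.5%. These are matches of letters in a 300-base window and say nothing of which factor is bound.

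Of the genes that cap and extend the distal end of the centriole and license cilium growth, C2CD3 and CCP110 fell in CFPAC-1 and MARK4 rose. C2CD3 (chr11:74012714-74171210, minus strand), which lengthens the centriole and is needed for its distal appendages, was at 2.05, 0.791 and 1.18 FPKM in CFPAC-1 cilia against 3.56, 4.15 and 4.01 FPKM in CFPAC-1 control, without overlap. Its log2 difference was -1.10 ± 0.25 (SE, n = 3 each; limma adjusted p = 0.0175) and -1.0 ± 0.37 without control 2 and 3 (limma adjusted p = 0.197). CCP110 (chr16:19523811-19553408, plus strand), which encodes the cap protein CP110, was at 1.04, 0.296 and 0.399 FPKM in CFPAC-1 cilia against 1.31, 1.93 and 2.34 FPKM in CFPAC-1 control. Those groups did not overlap either; the gene reached 1 FPKM in all 3 control libraries but in only 1 of the cilia libraries. The log2 difference of -0.87 ± 0.22 (limma adjusted p = 0.0269) was -0.58 ± 0.30 without control 2 and 3 (limma adjusted p = 0.354).

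MARK4 (chr19:45079288-45305283, plus strand), a kinase needed early in cilium growth, was at 7.48, 5.88 and 5.58 FPKM in CFPAC-1 cilia against 3.16, 3.98 and 3.38 FPKM in CFPAC-1 control. Every cilia library lay above every control library, by 0.69 ± 0.17 in log2 (limma adjusted p = 0.0237), and by 0.80 ± 0.24 without control 2 and 3 (limma adjusted p = 0.118). The locus overlaps GEMIN7, PPP1R37 and BLOC1S3 on its own strand and TRAPPC6A on the other. That of C2CD3 overlaps PPME1 on the other strand. Strand use is not stated and would not separate neighbours on the same strand, so reads of such neighbours cannot be told apart from the deposited values. In BxPC-3 the 3 genes had log2 differences of 0.07 (MARK4), -0.07 (C2CD3) and 0.11 (CCP110), none past the threshold. The difference of changes, BxPC-3 minus CFPAC-1, was -0.62 ± 0.24 for MARK4, 1.03 ± 0.36 for C2CD3 and 0.98 ± 0.32 for CCP110, and passed for none (limma adjusted p = 0.157, 0.124 and 0.105). With the replicate number as a block, MARK4 (limma adjusted p = 0.0574), CCP110 (0.0659) and TCTN3 (0.075) did not pass in CFPAC-1.

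CEP97, the partner of CP110 in the cap, was at 0.712, 0.179 and 0.251 FPKM in CFPAC-1 cilia against 0.861, 1.04 and 1.07 FPKM in CFPAC-1 control. The groups did not overlap, and the log2 difference of -0.55 ± 0.19 did not pass (limma adjusted p = 0.0682; -0.45 ± 0.28 without control 2 and 3, limma adjusted p = 0.447). In induced cells CEP97 was higher in BxPC-3 than in CFPAC-1 by 0.67 ± 0.19 (limma adjusted p = 0.0187), a call that was lost when CFPAC-1 cilia 2, CFPAC-1 cilia 3 or BxPC-3 cilia 1 was left out. TTBK2, the kinase that removes the cap, was at 2.52, 0.840 and 0.946 FPKM in BxPC-3 cilia against 1.76, 1.67 and 1.71 FPKM in BxPC-3 control. It was at 1.68, 0.198 and 0.377 FPKM in CFPAC-1 cilia against 0.605, 0.687 and 0.733 FPKM in CFPAC-1 control. In both lines cilia 1 was higher, and cilia 2 and 3 were lower, than all 3 control libraries, so the log2 differences of -0.22 in BxPC-3 and -0.03 in CFPAC-1 (0.03 with control 1 alone) are means over opposite values. OFD1, which limits centriole length, had a log2 difference of 0.05 in BxPC-3 and of -0.03 in CFPAC-1 (0.21 with control 1 alone).

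**Figure D3:**
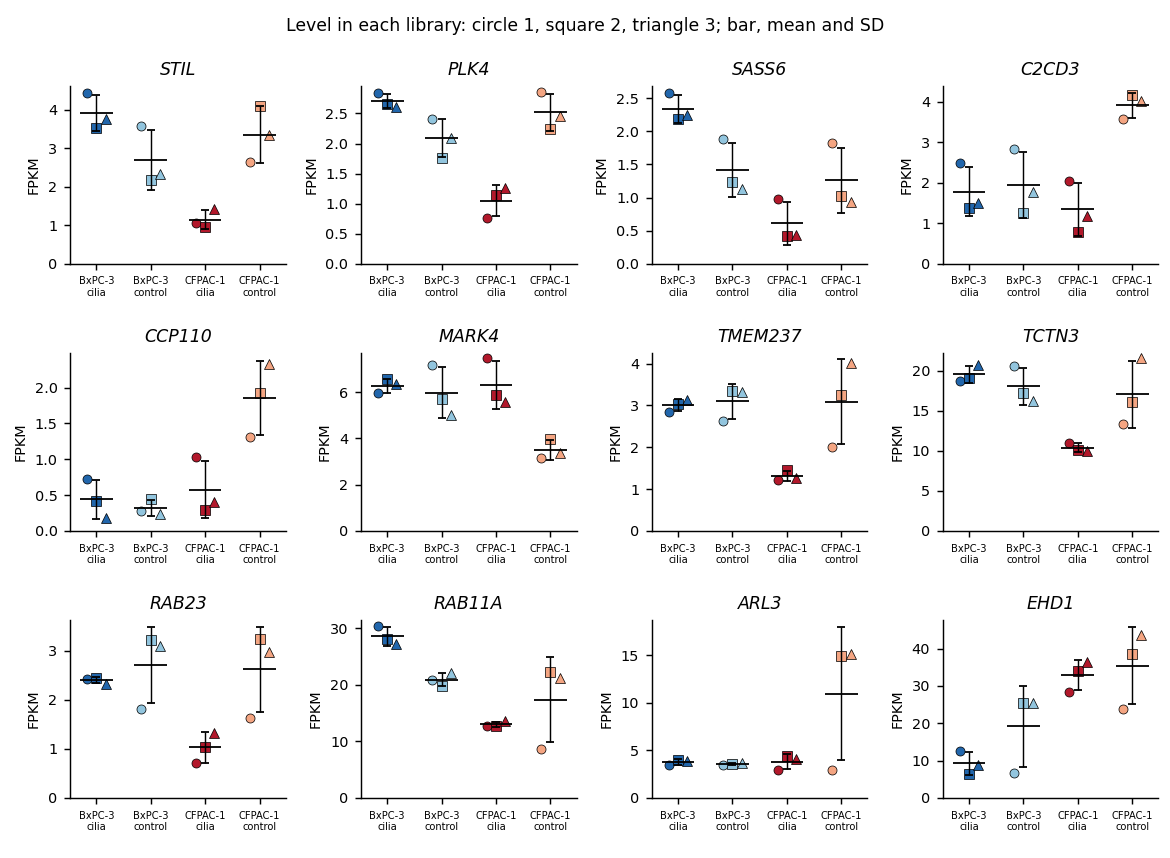
FPKM of 12 genes in each library of BxPC-3 cilia, BxPC-3 control, CFPAC-1 cilia and CFPAC-1 control, from left to right; circles, squares and triangles are libraries 1, 2 and 3, and bars give the mean and SD of each group. STIL and PLK4 are lowest in CFPAC-1 cilia, MARK4 is lowest in CFPAC-1 control, and ARL3 lies near 15 FPKM in CFPAC-1 control 2 and 3 and under 5 FPKM elsewhere.

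In the transition zone, TMEM237 and TCTN3 fell in CFPAC-1 and no gene rose. TMEM237 (chr2:201620184-201643570, minus strand), a membrane protein of the MKS module, was at 1.22, 1.46 and 1.25 FPKM in CFPAC-1 cilia against 2.00, 3.26 and 4.02 FPKM in CFPAC-1 control, without overlap. The log2 difference was -0.79 ± 0.19 (limma adjusted p = 0.0222), and with control 1 alone it was -0.38 ± 0.20 (limma adjusted p = 0.371). TCTN3 (chr10:95663396-95694143, minus strand), a tectonic of the same module and the most abundant transition zone gene, was at 11.0, 10.1 and 9.99 FPKM in CFPAC-1 cilia against 13.4, 16.1 and 21.6 FPKM in CFPAC-1 control. Its log2 difference of -0.64 ± 0.18 (limma adjusted p = 0.0386) was -0.34 ± 0.21 with control 1 alone (limma adjusted p = 0.442). For both genes control 1 was the lowest control library, and the size of the difference without the other control libraries was reduced by over 1.5 times.

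In BxPC-3 neither moved past the threshold: TMEM237 had a log2 difference of -0.03 ± 0.19 and TCTN3 of 0.11 ± 0.18. In induced cells both were higher in BxPC-3 than in CFPAC-1. TMEM237 was at 2.85, 3.04 and 3.12 FPKM in BxPC-3 cilia, above every CFPAC-1 cilia library, by 0.79 ± 0.19 in log2 (limma adjusted p = 0.00841). TCTN3 was at 18.8, 19.1 and 20.8 FPKM in BxPC-3 cilia, also above every CFPAC-1 cilia library, by 0.85 ± 0.18 (limma adjusted p = 0.00447).

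The remaining MKS module genes had small differences of mixed sign. In CFPAC-1, TCTN2 was the 1 transition zone gene higher in cilia without overlap, while 3 were lower. TCTN2 was at 3.43, 3.22 and 3.10 FPKM in CFPAC-1 cilia against 2.34, 2.11 and 2.39 FPKM in CFPAC-1 control, and did not pass the threshold. TMEM231, the member of this structure whose log2 difference in BxPC-3 was largest in size, was at 1.74, 0.921 and 1.31 FPKM in BxPC-3 cilia against 1.90, 2.60 and 1.90 FPKM in BxPC-3 control. Those values did not overlap, and the difference of -0.44 ± 0.25 did not pass (limma adjusted p = 0.698). TMEM17 went the other way, at 1.83, 1.16 and 1.27 FPKM in BxPC-3 cilia against 0.784, 0.939 and 0.775 FPKM in BxPC-3 control (0.39 ± 0.22, limma adjusted p = 0.677). Both carry the X-box shown above, as do TMEM107 and B9D1, with log2 differences of 0.23 and -0.21 in BxPC-3. TMEM216, TCTN2, B9D2, MKS1, CC2D2A and TMEM67 had log2 differences between -0.38 and 0.26 in BxPC-3 and between -0.05 and 0.51 in CFPAC-1 (-0.33 to 0.42 with control 1 alone), none past the threshold.

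In CFPAC-1, 5 of the 6 X-box genes had their highest values in the libraries that stood apart. Values of both CFPAC-1 control 2 and control 3 lay above the other 4 CFPAC-1 libraries for TMEM17, TMEM231, TMEM107, B9D1 and RAB3IP. TMEM17, for example, was at 1.06, 0.674 and 0.833 FPKM in CFPAC-1 cilia against 0.768, 2.02 and 1.94 FPKM in CFPAC-1 control. Its log2 difference was -0.44 ± 0.22 with all libraries and 0.06 ± 0.23 with control 1 alone, and did not pass in either (limma adjusted p = 0.171 and 0.941). Those of TMEM231, TMEM107 and B9D1 were -0.24, -0.39 and -0.24 with all libraries and 0.27, -0.08 and 0.13 with control 1 alone. Over the 47 genes such values lay above the others for 18 and below for 4, and over all tested genes for 30.9% and 25.0%. For AHI1, the X-box gene under the level filter, they did not: it was at 1.16, 0.181 and 0.257 FPKM in CFPAC-1 cilia against 0.459, 0.822 and 0.934 FPKM in CFPAC-1 control. In BxPC-3 AHI1 was at 0.507, 0.260 and 0.352 FPKM in BxPC-3 cilia against 0.4, 0.613 and 0.470 FPKM in BxPC-3 control.

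The NPHP side of the gate showed no change past the threshold. NPHP4 had log2 differences of 0.21 ± 0.19 in BxPC-3 and -0.08 ± 0.19 in CFPAC-1 (-0.10 ± 0.28 with control 1 alone). INVS, which names the inversin compartment above the gate, had 0.22 ± 0.20 in BxPC-3 and -0.33 ± 0.20 in CFPAC-1 (-0.30 ± 0.29 with control 1 alone). RPGRIP1L, an anchor of the NPHP module, was at 0.502, 0.480 and 0.598 FPKM in BxPC-3 cilia against 0.371, 0.359 and 0.443 FPKM in BxPC-3 control, which did not overlap. CEP290, which bridges microtubules and membrane at the gate, stayed under 1 FPKM in every library and TCTN1 between 0.559 and 1.31 FPKM. These genes were under the level filter, and with no read counts in the table no counting interval can be given for such levels.

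The tested distal appendage genes held no call on induction in either line. CEP89 (chr19:32875925-32971991, minus strand), needed for docking at the membrane, was at 4.38, 4.36 and 4.10 FPKM in BxPC-3 cilia against 3.70, 3.57 and 3.65 FPKM in BxPC-3 control. These did not overlap, and the log2 difference was 0.19 ± 0.23 (limma adjusted p = 0.921, with the spread pooled over all 4 groups). In CFPAC-1 it was at 1.53, 2.05 and 2.09 FPKM in cilia against 1.66, 4.11 and 3.90 FPKM in control, a log2 difference of -0.49 ± 0.23 (limma adjusted p = 0.147) and, with control 1 alone, of 0.11 ± 0.20 (limma adjusted p = 0.845). In induced cells CEP89 was higher in BxPC-3 than in CFPAC-1 by 0.88 ± 0.23 (limma adjusted p = 0.0122), with every BxPC-3 library above every CFPAC-1 library. CEP164, which recruits TTBK2, was at 2.45, 1.36 and 1.53 FPKM in BxPC-3 cilia against 4.44, 2.5 and 2.48 FPKM in CFPAC-1 cilia, a log2 difference of -0.56 ± 0.23 that did not pass (limma adjusted p = 0.0749). On induction CEP164, whose locus overlaps BACE1, had -0.08 ± 0.23 in BxPC-3 and -0.21 ± 0.23 in CFPAC-1 (-0.25 ± 0.34 with control 1 alone).

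FBF1, another appendage protein, had log2 differences of -0.20 ± 0.24 in BxPC-3 and -0.29 ± 0.24 in CFPAC-1 (-0.76 ± 0.28 with control 1 alone, limma adjusted p = 0.186). In both lines control 1 was the highest library, at 1.86 and 2.26 FPKM. CEP83, which starts the assembly of the appendage, and SCLT1 lay between 0.330 and 1.19 FPKM in all 12 libraries. CEP83 was at 0.922, 0.438 and 0.429 FPKM in CFPAC-1 cilia against 1.17, 0.948 and 1.19 FPKM in CFPAC-1 control, and SCLT1 at 0.464, 0.455 and 0.606 FPKM against 1.06, 0.951 and 0.845 FPKM. Neither overlapped between the groups, and both were under the level filter. With no filter on low values SCLT1 fell in CFPAC-1 (-0.37 ± 0.05, limma adjusted p = 0.00638, background 4.36%). It was higher in BxPC-3 than in CFPAC-1 in induced cells (0.28 ± 0.05, limma adjusted p = 0.00692, background 14.5%). CEP83 did not pass (-0.41 ± 0.11 in CFPAC-1, limma adjusted p = 0.0855). The locus of SCLT1 overlaps JADE1.

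ODF2, a subdistal appendage protein, and PCM1, the scaffold of centriolar satellites, had log2 differences of -0.34 ± 0.26 and -0.07 ± 0.27 in BxPC-3 and of -0.33 ± 0.26 and -0.06 ± 0.27 in CFPAC-1 (-0.03 and -0.29 with control 1 alone). ODF2 was at 8.56, 4.13 and 3.91 FPKM in CFPAC-1 cilia against 5.34, 8.20 and 7.15 FPKM in CFPAC-1 control. PCM1 was at 3.11, 0.976 and 1.18 FPKM in CFPAC-1 cilia against 2.19, 1.46 and 1.52 FPKM in CFPAC-1 control. For both genes cilia 1 was the highest CFPAC-1 library and cilia 2 and 3 were the lowest.

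Of the genes that bring membrane and lipid-anchored proteins to the cilium, RAB23 fell in CFPAC-1 and no gene passed in BxPC-3. RAB23 (chr6:57186992-57222314, minus strand), a small GTPase that restrains Hedgehog signalling, was at 0.713, 1.04 and 1.33 FPKM in CFPAC-1 cilia against 1.64, 3.24 and 2.98 FPKM in CFPAC-1 control. The groups did not overlap; the log2 difference was -0.82 ± 0.23 (limma adjusted p = 0.0345) and, with control 1 alone, -0.39 ± 0.27 (limma adjusted p = 0.511). In BxPC-3 it was at 2.43, 2.44 and 2.32 FPKM in cilia against 1.82, 3.22 and 3.10 FPKM in control, a log2 difference of -0.11 ± 0.23. The locus overlaps BAG2.

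ARL3 (chr10:102673731-102714407, minus strand), the GTPase that releases lipid-anchored cargo inside the cilium, had nearly the same level in 10 of the 12 libraries. It was at 3.47, 4.02 and 3.92 FPKM in BxPC-3 cilia against 3.51, 3.58 and 3.68 FPKM in BxPC-3 control. It was at 2.97, 4.43 and 4.07 FPKM in CFPAC-1 cilia against 2.91, 14.9 and 15.1 FPKM in CFPAC-1 control. CFPAC-1 control 2 and 3 alone were high. The log2 difference in CFPAC-1 was -1.07 ± 0.43 with them (limma adjusted p = 0.103) and 0.29 ± 0.22 without them (limma adjusted p = 0.555), and in BxPC-3 it was 0.06 ± 0.43.

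The carriers from which ARL3 releases cargo did not pass. PDE6D, the carrier of prenylated proteins, was at 4.20, 6.21 and 5.23 FPKM in CFPAC-1 cilia against 6.15, 11.1 and 10.2 FPKM in CFPAC-1 control (-0.68 ± 0.23, limma adjusted p = 0.0598; -0.22 ± 0.26 with control 1 alone, limma adjusted p = 0.739). UNC119B, the carrier of myristoylated proteins, had log2 differences of 0.39 ± 0.28 in BxPC-3 and 0.36 ± 0.28 in CFPAC-1 (-0.22 ± 0.33 with control 1 alone). INPP5E, a phosphoinositide phosphatase that PDE6D carries, had -0.31 ± 0.17 in BxPC-3 and 0.04 ± 0.17 in CFPAC-1 (0.11 ± 0.24 with control 1 alone). TULP3, which brings receptors into the cilium, had -0.05 ± 0.24 in BxPC-3 and -0.29 ± 0.24 in CFPAC-1 (-0.09 ± 0.34 with control 1 alone). The locus of PDE6D overlaps COPS7B, that of TULP3 RHNO1, and that of RAB11A DENND4A.

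RAB11A (chr15:65726054-65891991, plus strand), which brings vesicles to the mother centriole, was at 30.4, 28.1 and 27.3 FPKM in BxPC-3 cilia against 20.9, 19.8 and 22.1 FPKM in BxPC-3 control. The groups did not overlap, and the log2 difference of 0.43 ± 0.28 did not pass (limma adjusted p = 0.747, with the spread pooled over all 4 groups). In CFPAC-1 it was at 12.7, 12.7 and 13.6 FPKM in cilia against 8.70, 22.2 and 21.2 FPKM in control, a log2 difference of -0.29 ± 0.28 with all libraries and 0.53 ± 0.19 with control 1 alone (limma adjusted p = 0.486 and 0.181). In induced cells it was higher in BxPC-3 than in CFPAC-1 by 1.08 ± 0.28 (limma adjusted p = 0.0115). RAB3IP, known as Rabin8, activates RAB8A downstream of RAB11A; its log2 differences were -0.21 ± 0.23 in BxPC-3 and -0.52 ± 0.23 in CFPAC-1 (-0.09 ± 0.28 with control 1 alone). RAB3IP was at 1.13, 0.774 and 0.854 FPKM in BxPC-3 cilia against 0.255, 0.113 and 0.102 FPKM in CFPAC-1 cilia, and RAB8A had a log2 difference in BxPC-3 of 0.12 ± 0.29 and in CFPAC-1 of -0.36 ± 0.29 (-0.94 ± 0.34 with control 1 alone, limma adjusted p = 0.182).

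EHD1 (chr11:64851642-64888296, minus strand), which reshapes the membrane vesicle on the mother centriole, had the largest difference between the lines in size on the log2(FPKM + 1) scale; with a pseudocount of 0.1 RAB3IP had the larger one, at 2.02 beside -1.86. EHD1 was at 12.4, 6.53 and 8.78 FPKM in BxPC-3 cilia against 28.5, 34.0 and 36.5 FPKM in CFPAC-1 cilia, without overlap, a log2 difference of -1.76 ± 0.44 (limma adjusted p = 0.00897). In BxPC-3 control it was at 6.73, 25.5 and 25.6 FPKM. Control 1 was close to the cilia libraries and control 2 and 3 were higher, so the log2 difference on induction of -0.82 ± 0.44 did not pass (limma adjusted p = 0.662). Without BxPC-3 control 1 it did (limma adjusted p = 0.0426), which made EHD1 the only member called in BxPC-3 under any of the settings tried. In CFPAC-1 the log2 difference was -0.07 ± 0.44, and 0.44 ± 0.62 with control 1 alone.

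**Figure D4:**
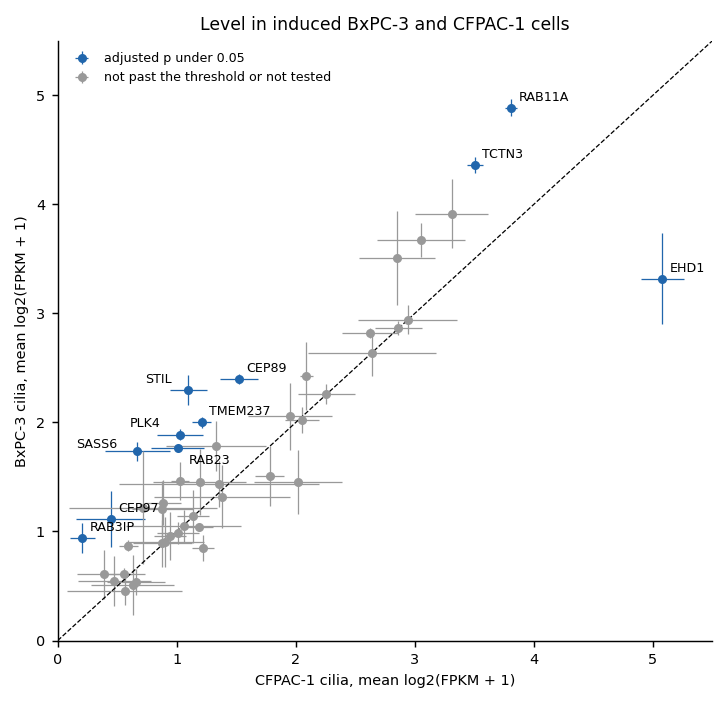
Mean log2(FPKM + 1) of the 47 genes in BxPC-3 cilia (vertical axis) against CFPAC-1 cilia (horizontal axis), with bars of 1 SD over 3 libraries; the dashed line marks equal levels and colour the 11 genes past the adjusted threshold. STIL, SASS6, PLK4, RAB11A, TCTN3, CEP89, TMEM237, RAB23, RAB3IP and CEP97 lie above the line and EHD1 below it.

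Other genes of the same structures were counted in the same way. Of 72 further genes of the transition zone, the centriole and membrane trafficking, 58 were tested. LRRK1 reached 1 FPKM only in the CFPAC-1 control libraries, so its fall given below was tested only through the group in which it is higher. In BxPC-3 none passed on induction by limma (background 0.334%), 2 had an unadjusted p under 0.05 (background 8.52%) and the median log2 difference was 0.07. In CFPAC-1 0 rose and 3 fell (5.2% of the 58, against 8.77% of all tested genes), SSX2IP, CCDC28B and LRRK1, with a median of -0.29; none passed without control 2 and 3, when the median was -0.09. SSX2IP, a satellite protein, was at 1.74, 0.999 and 1.19 FPKM in CFPAC-1 cilia against 2.33, 6.22 and 6.34 FPKM in CFPAC-1 control, with control 2 and 3 high again (-1.29 ± 0.28, limma adjusted p = 0.0144; -0.54 with control 1 alone, limma adjusted p = 0.289).

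In induced cells 6 of the 58 tested were higher and 5 lower in BxPC-3 than in CFPAC-1 (19.0% together), below the background of 36.2%, with 21.4% higher and 14.8% lower. RAB34, a GTPase of the pathway by which cilia start inside the cell, was at 0.214, 0.0159 and 0 FPKM in BxPC-3 cilia against 17, 24.4 and 20.5 FPKM in CFPAC-1 cilia. BxPC-3 control was as low, at 0, 0.219 and 0.0209 FPKM, and CFPAC-1 control as high, at 21.3, 20.3 and 27.4 FPKM, so the level followed the line and not the culture. The log2 difference in induced cells was -4.32 ± 0.19 (limma adjusted p = 3.26e-08). RAB34 was under 1 FPKM in every BxPC-3 library, so it was tested only through the line in which it is higher. CCDC120, a centriolar protein, was higher in induced BxPC-3 cells by 1.72 ± 0.33 (limma adjusted p = 0.00219), and CEP19, which takes part in recruiting transport proteins at the mother centriole, was lower by 1.01 on the same scale (-1.01 ± 0.19, limma adjusted p = 0.00214). CEP19 too was under 1 FPKM in every BxPC-3 library, as were the other lower genes, LRRK1, DZIP1L and TRAPPC9. All 5 lower genes were thus tested only through CFPAC-1, the line in which they are higher. Of the higher genes, ARL6 and CCDC120 were under 1 FPKM in every CFPAC-1 cilia library and would not have passed the filter without BxPC-3.

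In the cilia groups, library 1 differed from libraries 2 and 3 by transcript length, and the members have longer transcripts than most genes. The median longest transcript was 4551 bases over the members and 2905 bases over the tested genes. For tested genes of 5 kb or more, BxPC-3 cilia 1 was above the mean of cilia 2 and 3 by a median of 0.42 in log2, and CFPAC-1 cilia 1 by 0.44. Below 2 kb those medians were -0.18 and -0.12. The control groups had medians from -0.04 to 0.06 in every length class. In CFPAC-1 cilia the members went the same way, with medians of -0.16 under 2 kb (5 members), 0.12 from 2 to 5 kb (25) and 0.50 at 5 kb or more (17). In BxPC-3 cilia they did not climb through the classes: the medians were 0.03, 0.30 and 0.25, where those of all tested genes were -0.18, 0.09 and 0.42.

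The members' difference in CFPAC-1 changed with the libraries compared. Between cilia and control libraries with numbers 2 and 3 the median log2 difference over the 47 genes was -0.43, with 9 above 0, beside -0.13 over all tested genes, with 42.6% above 0. Between the libraries numbered 1 it was 0.01, with 25 above 0, beside 0.01 over all tested genes, with 51.2% above 0. In BxPC-3 the same medians were 0.02 for the members beside 0.05 for all tested genes with numbers 2 and 3, and 0.13 beside 0.09 with number 1. With the trend on transcript length removed in each library, a setting added after the data had been seen, 7 members passed in CFPAC-1 (background 17.4%), 0 in BxPC-3 (0.218%), 1 for the difference of changes (STIL; 3.06%) and 8 between the lines in induced cells (37.4%). The members' median was then -0.15 in CFPAC-1, beside 0.01 over all tested genes, and 0.06 for the difference of changes, beside -0.01; as first fitted these were -0.29 and 0.26, beside -0.09 and 0.16 over all tested genes.

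**Figure D5:**
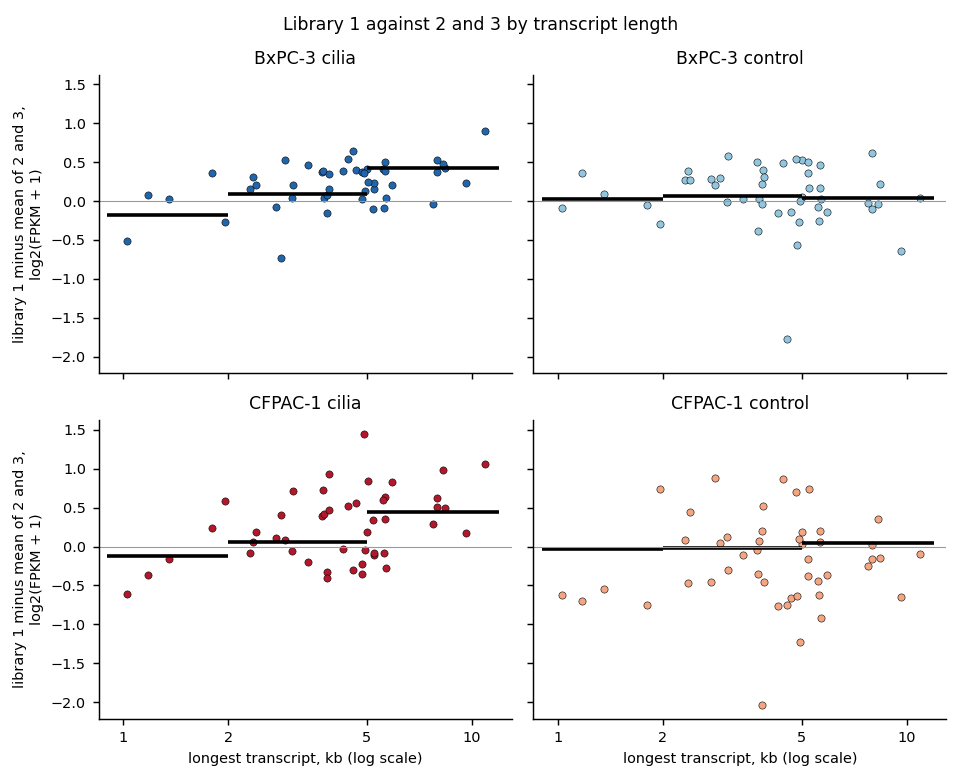
Library 1 minus the mean of libraries 2 and 3, in log2(FPKM + 1), for each of the 47 genes (points) against the length of its longest transcript on a log axis, in BxPC-3 cilia and control (top) and CFPAC-1 cilia and control (bottom); black bars give the median of all tested genes under 2 kb, from 2 to 5 kb, and of 5 kb or more. The bars climb with length in both cilia panels, to 0.42 and 0.44, and stay near 0 in both control panels, where ARL3 in CFPAC-1 and EHD1 in BxPC-3 are the lowest points.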

How the data were processed

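The authors deposited 1 table of log2 values, log2(FPKM + 1) per gene and library, as the file headers and the values show. FastQC, StringTie and GRCh38 are named, per the submitters' processing notes; no source used here gives the aligner, annotation or strand use. FPKM values were obtained by undoing the log2 step. GENCODE release 29 on GRCh38, which holds 58457 (96.5%) of the identifiers, gave coordinates and transcript lengths. FPKM is relative to each library's total, and low genes have understated changes on this scale. Whole reads could not be recovered: 32.8% to 37.0% of low values were within 0.1 of a whole number of reads, against 20% if uniform.

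Genes of at least 1 FPKM in at least 3 of 12 libraries (12860) were tested with limma 3.58.1 in R 4.3.3 on the deposited scale, 4 group means, 8 residual degrees of freedom, two-sided, Benjamini-Hochberg adjusted, threshold 0.05. Contrasts were cilia minus control in each line, the difference of these changes, and BxPC-3 minus CFPAC-1 in cilia cultures. The fit was tested on simulated data. Named genes are every member past the threshold (where over 8, the 4 largest rises and falls) and, per structure, the highest and the most changed in each line; further names were chosen after their values were seen. The members, structures, other pathway genes, cell cycle genes and cell type markers were chosen with earlier results of these data known. Alternatives were the filter, the pseudocount (0.1), quantile normalization, rescaling without mitochondrially encoded genes, limma's trend and robust setting, a replicate block, each line or the cilia groups alone, leaving out libraries, and the length trend. Motifs were searched by exact letters; figures were drawn with matplotlib 3.10.9.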

Additional observations from a re-analysis of the deposited data

Results flagged for a closer look

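The change on induction differed between the lines for STIL, by 1.44 on the log2 scale (BxPC-3 minus CFPAC-1, limma adjusted p = 0.0294), with alternatives giving an adjusted p from 0.00125 to 0.176. STIL had a log2 difference, cilia minus control, of 0.43 in BxPC-3 and of -1.01 in CFPAC-1. The change also differed for PLK4, by 1.05 (limma adjusted p = 0.041, range over the alternatives 0.00589 to 0.146), with log2 differences of 0.27 in BxPC-3 and -0.78 in CFPAC-1. All 30 cell cycle genes also had a positive difference of changes, with a median of 1.32, and 2 of them passed. Every CFPAC-1 cilia library was under every CFPAC-1 control library for both STIL and PLK4. In BxPC-3 every cilia library was above every control library for PLK4 and not for STIL. Neither difference passed without CFPAC-1 control 2 and 3, which stand apart from their line; without them it was 1.19 for each gene (limma adjusted p = 0.128 for STIL and 0.0893 for PLK4).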

How the results depend on the processing

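No called value of a member changed sign under any alternative, and among 3055 alternative values of results not called 240 did. In CFPAC-1, 8 members passed as reported, 2 with the filter at 5 FPKM, 0 with the line fitted alone, 0 without control 2 and 3 together, 0 with the length trend also removed, and 1 to 18 with each library left out in turn (18 without CFPAC-1 control 1, when 42.0% of all tested genes passed, 1 without control 2, when 3.93% did, and 2 without control 3, cilia 2 or cilia 3). With CFPAC-1 fitted alone 2.83% of all tested genes passed. In BxPC-3, 0 passed as reported and 0 to 1 with each library left out (1 without BxPC-3 control 1, when 1.94% of all tested genes passed). For the difference of changes, 2 passed as reported, 0 with the filter at 5 FPKM, 1 with quantile normalization, 0 without CFPAC-1 control 2 and 3 together, 1 with the length trend removed and 0 with both, and 0 to 15 with each library left out (15 without CFPAC-1 control 1, when 32.3% of all tested genes passed). Between the lines in cilia cultures, 11 passed as reported, 3 with the filter at 5 FPKM (background 39.0%), and 8 to 16 with each library left out. The 8 were without CFPAC-1 cilia 2 (background 27.8%) and the 16 without CFPAC-1 control 1 (background 47.3%). STIL, PLK4, SASS6, TCTN3, RAB11A and EHD1 kept that call under every alternative that tested them. The filter at 5 FPKM keeps 10 members. STIL and PLK4 reached at most 4.45 and 2.85 FPKM and could not be tested under it, so its 0 for the difference of changes is not a lost call. In CFPAC-1, MARK4 and TCTN3 kept their calls under it (background 21.3%).

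Same-numbered libraries deviated from their group means with correlations of 0.15, 0.11 and 0.05 in BxPC-3 and -0.06, -0.02 and -0.08 in CFPAC-1, so the numbers were not taken as pairs. With the replicate block, 6 members passed in CFPAC-1 (background 12.6%), 0 in BxPC-3 (0.00%), 0 for the difference of changes (0.0156%) and 13 between the lines (33.9%). Scaling moved the median log2 difference of all genes between the lines in cilia cultures to 0.00 with quantile normalization, beside 0.12 as reported. Depth is unknown, so levels near 0 carry no limit of detection. The cause of these shifts was not tested.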
